A study of Homo sapiens with 19 samples.

Results

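HepG2 cells are a line established from a human liver cancer. The change measured in them was that seen when an siRNA against TAZ was given together with an siRNA against YAP. It is the difference between 2 arrays of cells transfected with siTAZ3 and siYAP2 together (group siTAZ3_siYAP2) and 3 arrays of cells transfected with siYAP2 alone, chosen by the array titles, 5 of the 19 arrays of the series. All 25582 probe sets were tested. YAP (gene YAP1) and its relative TAZ (gene WWTR1) are transcriptional coactivators of the Hippo pathway. When the pathway's kinases MST and LATS are inactive, both enter the nucleus and bind TEAD factors, which switch on genes such as CCN1, CCN2, ANKRD1 and AMOTL2. In liver the pathway is known for its control of organ size and of the identity of hepatocytes and bile duct cells, and YAP is often active in liver tumours.

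The series holds 7 groups of HepG2 cells. Control cells (3 arrays) received a nonsense siRNA. The siRNAs siYAP1 and siYAP2 (3 arrays each) are both directed at YAP1, and siTAZ2 (3 arrays) and siTAZ3 (2 arrays) both at WWTR1. The pairs are siTAZ2_siYAP1 (3 arrays) and siTAZ3_siYAP2 (2 arrays). Each siRNA was given at 20 nM, so that siYAP2 cells received 20 nM and siTAZ3_siYAP2 cells 40 nM in total, and RNA was taken after 24 h. The control dose reads as 20 nM in one label and as 40 nM in another. The 9 control, siYAP1 and siYAP2 arrays belong to a separate deposit as well, and the 10 arrays with a TAZ siRNA do not. Deposit, total siRNA dose and the added siTAZ3 therefore cannot be told apart in the main difference. The labels do not state that arrays of a group came from separate cultures, and the spread behind each p-value is that between these arrays, which may be technical.

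As a check of the cell line, 10 measured hepatocyte and HepG2 markers had group means between 8.07 and 13.5 in the 2 groups, on a log2 scale whose array median was 4.83. Of 14 markers of fibroblasts, endothelium and blood, CD68, a lysosomal protein, read 10.6 in both groups and COL1A1, a collagen chain, read 6.67 with siYAP2 and 6.51 with the pair, and the other 12 lay below the array median. None of these 24 markers passed the test, whose threshold was an adjusted p of 0.05 from limma with Benjamini-Hochberg adjustment over all probe sets. Their largest differences were in SERPINA1, alpha-1-antitrypsin (0.20), APOA1, the main HDL protein (0.10), CDH5, an endothelial cadherin (0.20), and COL3A1, a collagen chain (0.17), with limma adjusted p from 0.45 to 1. The array labelled siTAZ2 replicate 3 stood apart, with a median correlation of 0.9866 with the other arrays against 0.9927 to 0.9948 for the rest. It is in neither group compared and enters only through the pooled spread. The RNA is from whole cultures, in which less transcript per cell and fewer cells carrying it cannot be told apart.

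TEAD factors bind the sequence GGAATG, or CATTCC read on the other strand. The stretches before the start sites of 3 YAP and TAZ target genes whose values follow are shown because they carry this motif. Each is the 250 bases upstream of the start site in RefSeq (GRCh38.p14, minus strand), written 5′ to 3′ with the motif in capitals. ANKRD1 lies at chr10:90921088-90921337, CCN2 at chr6:131951373-131951622 and AMOTL2 at chr3:134374448-134374697, the last being 1 of 2 start sites listed for that gene. The window of the other AMOTL2 start site did not hold the motif.
ANKRD1: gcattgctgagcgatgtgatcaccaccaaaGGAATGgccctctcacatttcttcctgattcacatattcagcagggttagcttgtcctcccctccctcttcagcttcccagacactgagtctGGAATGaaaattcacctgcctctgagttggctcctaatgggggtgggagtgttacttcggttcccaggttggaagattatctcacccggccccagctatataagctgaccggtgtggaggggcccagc
CCN2: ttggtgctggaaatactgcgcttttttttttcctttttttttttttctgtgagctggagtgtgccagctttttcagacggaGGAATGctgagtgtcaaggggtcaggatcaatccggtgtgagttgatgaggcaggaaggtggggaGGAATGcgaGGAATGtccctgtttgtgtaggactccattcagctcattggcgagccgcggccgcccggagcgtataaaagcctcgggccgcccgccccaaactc
AMOTL2: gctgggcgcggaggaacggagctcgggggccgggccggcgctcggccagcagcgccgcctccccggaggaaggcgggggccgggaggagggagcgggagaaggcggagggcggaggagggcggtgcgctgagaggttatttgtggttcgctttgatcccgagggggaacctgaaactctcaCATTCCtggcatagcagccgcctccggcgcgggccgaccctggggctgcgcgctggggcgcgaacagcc
The motif stands at -220 and -128 from the start site of ANKRD1, at -169, -104 and -95 from that of CCN2 and at -69 from that of AMOTL2, counted to its first base. Among windows of this length it was present in 11.9% of all 35116 RefSeq promoters and in 10.8% of 23650 promoters of measured genes. It was present in 10 of 27 windows of the listed YAP and TAZ target genes, or 37.0%. Windows of genes that fell on adding siTAZ3 held it in 23 of 174 cases (13.2%), and those of genes that rose in 18 of 154 (11.7%).

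WWTR1, the target of siTAZ3, was strongly lower in the pair. It read 9.19, 9.15 and 9.32 on the siYAP2 arrays and 6.44 and 6.15 on the siTAZ3_siYAP2 arrays. Both arrays of the pair lay far below all siYAP2 arrays, and WWTR1 fell by 2.93 on the log2 scale (SE 0.118, 7.6-fold, limma adjusted p = 3.34e-09). The 3 control arrays read 9.61, 9.49 and 9.54 and the 2 arrays of siTAZ3 alone 6.33 and 6.61. Of the mean control level 79.7% remained with siYAP2 alone, 11.9% with siTAZ3 alone and 10.5% with the pair. With siTAZ3 alone WWTR1 fell by 3.07 from control, and this fall and that from siYAP2 differed by 0.15, which did not pass (limma adjusted p = 1). With siTAZ2 on siYAP1 the fall was smaller, 1.95, and the difference between the 2 pairs passed (-0.97, limma adjusted p = 0.0075).

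YAP1 itself was slightly higher in the pair than with siYAP2 alone. It read 7.11, 7.25 and 7.02 on the siYAP2 arrays and 7.63 and 7.85 on the siTAZ3_siYAP2 arrays, against 9.87, 9.81 and 9.83 in control. The groups did not overlap, and YAP1 rose by 0.61 (SE 0.0931, 1.53-fold, limma adjusted p = 0.00295). The pair kept 23.4% of the control level and siYAP2 alone 15.3%, so both stayed far below control. YAP1 also rose with siTAZ2 on siYAP1, by 0.42 (limma adjusted p = 0.0113), and it fell by 0.41 with siTAZ3 alone (limma adjusted p = 0.0469), and both of these also set later arrays against earlier ones. The YAP1 rise in the main difference had a limma adjusted p of 0.0833 without siTAZ3_siYAP2 replicate 2 and 0.0889 with only the 5 arrays in the fit.

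**Figure D1:**
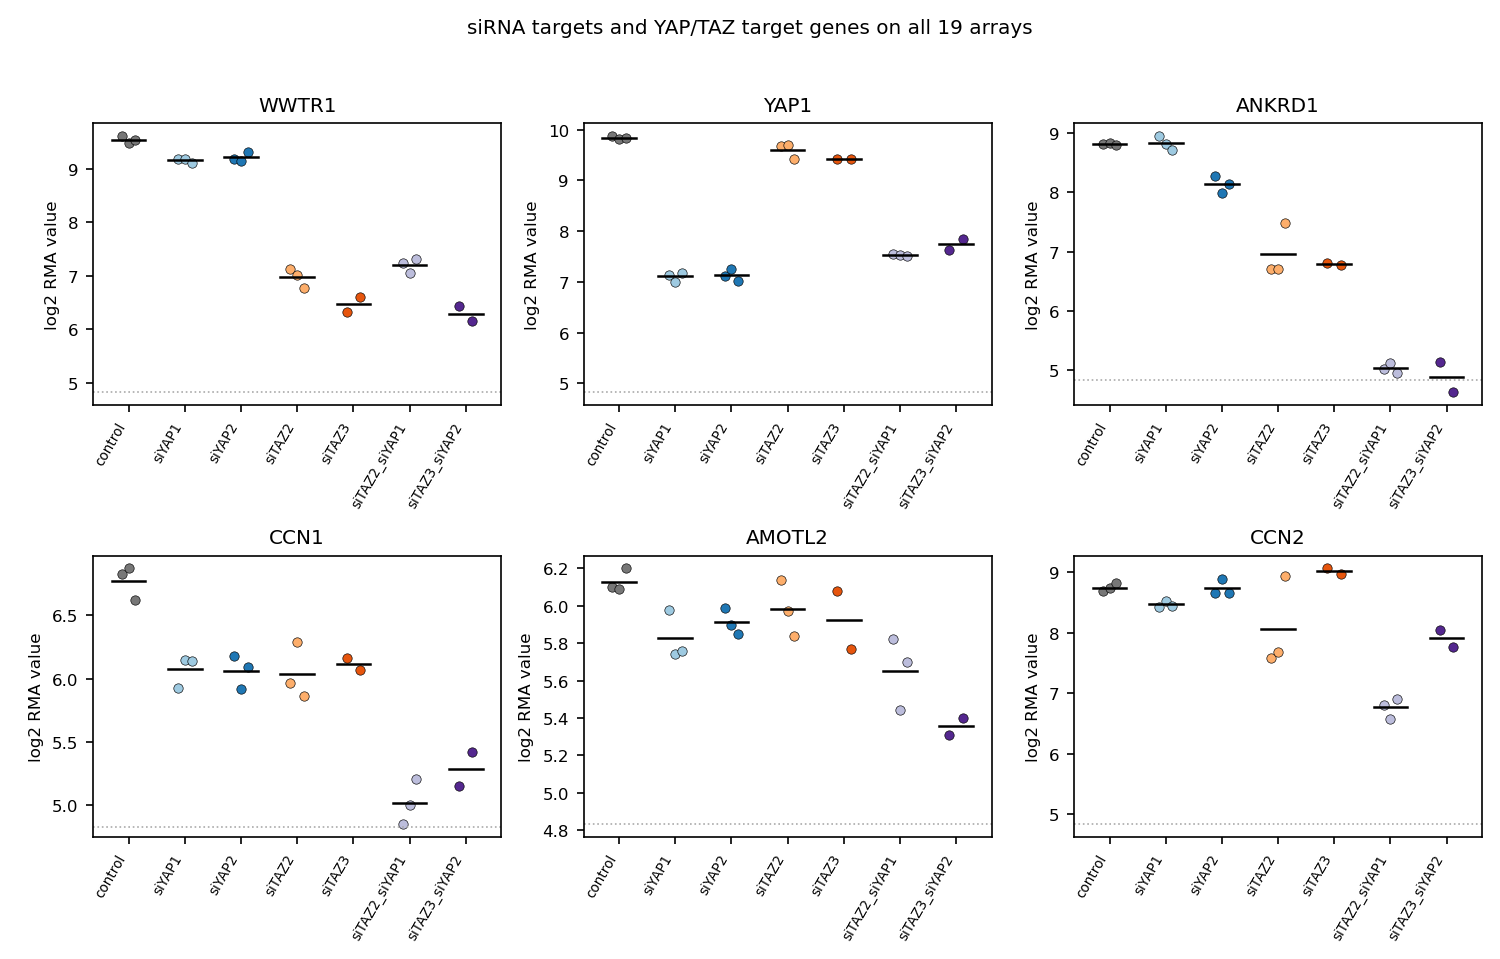
RMA values (log2, vertical axis) of the 2 siRNA targets and 4 YAP/TAZ target genes on all 19 arrays, by group (horizontal axis). Points are arrays, bars are group means and the dotted line is the array median of 4.83, near which ANKRD1 lies in both pairs (5.13 and 4.63 with siTAZ3_siYAP2, 5.02, 5.12 and 4.96 with siTAZ2_siYAP1).

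Of the target genes of YAP and TAZ, ANKRD1 moved most. ANKRD1, an ankyrin repeat protein best known from muscle, read 8.28, 7.99 and 8.15 with siYAP2 and 5.13 and 4.63 with the pair. It fell by 3.26 (SE 0.188, 9.57-fold, limma adjusted p = 1.99e-07). The pair's values lie around the array median, as do those of siTAZ2_siYAP1 (5.02, 5.12 and 4.96), so both levels may be at background and both falls may be understated. ANKRD1 fell by 2.02 with siTAZ3 alone (limma adjusted p = 8.48e-05) and by 3.80 with siTAZ2 on siYAP1 (limma adjusted p = 1.28e-08), and neither differed from the main difference past the threshold (limma adjusted p = 0.154 and 0.541).

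CCN1, a secreted matricellular protein, read 6.18, 5.92 and 6.09 with siYAP2 and 5.15 and 5.42 with the pair, and it fell by 0.78 (SE 0.137, limma adjusted p = 0.00995). Each siRNA given alone left a mean between 6.04 and 6.11, below the control mean of 6.77, and both pairs stood lower still, at 5.02 with siTAZ2_siYAP1 and 5.28 with siTAZ3_siYAP2. AMOTL2, an angiomotin that binds YAP, read 5.99, 5.90 and 5.85 with siYAP2 and 5.31 and 5.40 with the pair, and it fell by 0.56 (SE 0.121, limma adjusted p = 0.0339). Its mean with the pair, 5.35, was the lowest of the 7 groups. The pair's values of CCN1 and AMOTL2 lie not far above the array median of 4.83, so both falls may be understated. CCN2, a secreted protein closely related to CCN1, read 8.66, 8.88 and 8.65 with siYAP2 and 8.05 and 7.77 with the pair. These arrays did not overlap, yet its difference of -0.82 (SE 0.272) did not pass (limma adjusted p = 0.28). CCN2 read 7.58, 7.68 and 8.94 on the siTAZ2 arrays, and without the array labelled siTAZ2 replicate 3 in the fit the same difference passed (limma adjusted p = 0.000298). CCN2 did not pass with only the 5 arrays in the fit (limma adjusted p = 0.0602). It also stood at 9.06 and 8.97 with siTAZ3 alone, above all 3 control arrays (8.68, 8.73 and 8.82), and at 6.81, 6.58 and 6.91 with siTAZ2_siYAP1. The CCN1 call was lost without siTAZ3_siYAP2 replicate 1 (limma adjusted p = 0.139). The AMOTL2 call was lost without any 1 of the 5 arrays (limma adjusted p up to 0.211).

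Of 30 measured genes in a list of YAP and TAZ targets, 5 fell, none rose and 25 did not pass, with a median difference of -0.10 against 0.002 over all probe sets, of which 0.59% fell and 0.532% rose. Besides ANKRD1, CCN1 and AMOTL2, these were MYOF and AJUBA. MYOF, a membrane repair protein, read 5.83, 5.81 and 5.71 with siYAP2 and 4.90 and 5.21 with the pair and fell by 0.73 (limma adjusted p = 0.00375). The pair's values of MYOF lie near the array median of 4.83, so its fall may be understated. AJUBA, a LIM protein that binds LATS kinases, read 8.56, 8.68 and 8.71 with siYAP2 and 7.94 and 8.07 with the pair and fell by 0.65 (limma adjusted p = 0.00511). The calls of MYOF and AJUBA were both lost without siTAZ3_siYAP2 replicate 1 (limma adjusted p = 0.0848 for each). Of 28 genes of the Hippo pathway and the TEAD family, WWTR1, AMOTL2 and AJUBA fell and YAP1 rose, against 1.12% of all probe sets called in either direction, and the median was -0.07. WWTR1 and YAP1 are the siRNA targets themselves.

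Over all probe sets, 287 passed (1.12%), 136 of them higher in the pair (0.532%) and 151 lower (0.59%), and 1969 had an unadjusted p under 0.05. The 5 arrays of the 2 groups did not overlap for any of the 287, as for 25.8% of all probe sets. Most changes were moderate: 10 rises and 9 falls reached 1 on the log2 scale. Without siYAP2 replicate 1, 2 or 3 the count became 169, 153 or 142, and without siTAZ3_siYAP2 replicate 1 or 2 it became 137 or 114. Without the array labelled siTAZ2 replicate 3 it became 719, and with only the 5 arrays in the fit 141. Of the 60 named genes that passed, 38 lost the call without at least 1 of the 5 arrays: 32 each without siTAZ3_siYAP2 replicate 1 or 2, and 17, 21 and 23 without siYAP2 replicate 1, 2 and 3.

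**Figure D2:**
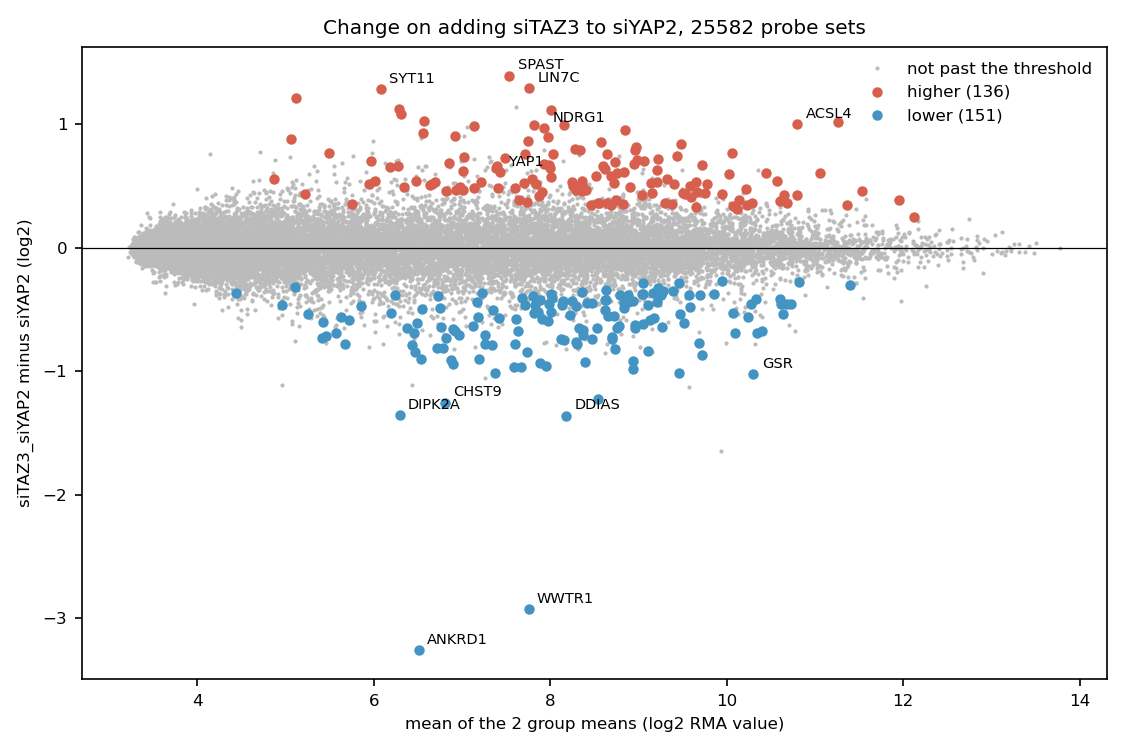
Difference between siTAZ3_siYAP2 and siYAP2 (log2, vertical axis) against the mean of the 2 group means (log2 RMA value, horizontal axis) for 25582 probe sets. Red points are the 136 rises, blue points the 151 falls and grey points those that did not pass; WWTR1 and ANKRD1 stand apart at -2.93 and -3.26.

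The largest falls were for the most part shared with siTAZ3 given alone. That comparison, siTAZ3 against control, has no array in common with the main difference and called 296 probe sets (1.16%), 131 higher (0.512%) and 165 lower (0.645%). It too sets later arrays against earlier ones. Of the 151 falls, 77 also fell with siTAZ3 alone, which is 51% of these and 46.7% of the 165, and none rose there. The other pair, siTAZ2 on siYAP1, shares no array either and called 671 probe sets (2.62%), 285 higher (1.11%) and 386 lower (1.51%). Of the 151 falls, 42 fell there too (27.8% of these, 10.9% of the 386), 25 fell in both comparisons and 57 in neither. The median of the 151 was -0.57 here, -0.46 with siTAZ3 alone and -0.17 with siTAZ2 on siYAP1. For 25 of the 151, among them ANKRD1, WWTR1, SLC7A6 and SOCS6, all 10 later arrays lay below all 9 earlier ones, as for 55 of all probe sets.

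Among the 15 largest falls of named genes, 12 also fell with siTAZ3 alone, and of these ANKRD1, WWTR1, SLC7A6, SOCS6 and ANXA3 fell with siTAZ2 on siYAP1 as well. SLC7A6, a cell surface exchanger of cationic and neutral amino acids, read 9.41, 9.36 and 9.52 with siYAP2 and 8.58 and 8.32 with the pair and fell by 0.98 (limma adjusted p = 0.00125). SOCS6, a suppressor of cytokine and growth factor signalling, read 8.10, 7.95 and 8.14 and then 7.05 and 7.16 and fell by 0.96 (limma adjusted p = 7.16e-05). ANXA3, a calcium-dependent phospholipid-binding annexin, read 8.25, 8.45 and 8.37 and then 7.18 and 7.65 and fell by 0.93 (limma adjusted p = 0.00117). All 3 lost between 0.43 and 1.13 with siTAZ2 on siYAP1, and their differences between the pairs did not pass (limma adjusted p = 0.739, 0.0708 and 0.839). These calls held without each of the 5 arrays, but that of ANXA3 was lost with only the 5 arrays in the fit (limma adjusted p = 0.0732).

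Another 7 of the largest falls passed with siTAZ3 alone and not with siTAZ2 on siYAP1: DDIAS, DIPK2A, SH3BP4, GSR, CDC37L1, WDCP and PAFAH2. DIPK2A, a kinase-like protein of the secretory pathway, read 6.88, 6.87 and 7.16 with siYAP2 and 5.76 and 5.47 with the pair. It fell by 1.35 (SE 0.175, limma adjusted p = 0.000925) and by 1.23 with siTAZ3 alone, and was 0.20 higher with siTAZ2 on siYAP1. CDC37L1, a co-chaperone related to CDC37, read 8.16, 8.09 and 8.20 and then 7.37 and 7.0, and fell by 0.97 (limma adjusted p = 0.00148) and by 0.84 with siTAZ3 alone. For DIPK2A and CDC37L1 the difference between the 2 pairs passed (-1.55 and -1.24, limma adjusted p = 0.00447 and 0.00355).

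DDIAS, a protein induced by DNA damage that protects from apoptosis, read 8.97, 8.66 and 8.94 with siYAP2 and 7.78 and 7.22 with the pair and fell by 1.36 (SE 0.275, limma adjusted p = 0.0242). SH3BP4, an adaptor of receptor endocytosis, read 9.15, 9.05 and 9.26 and then 8.04 and 7.82 and fell by 1.22 (limma adjusted p = 0.0192). GSR, glutathione reductase, read 10.79, 10.82 and 10.83 and then 9.80 and 9.78 and fell by 1.02 (limma adjusted p = 0.0147). In none of the 3 did the groups overlap, which the rule for naming the largest falls required. WDCP, a WD repeat and coiled coil protein, fell by 0.96 (limma adjusted p = 0.0192). PAFAH2, an intracellular hydrolase of platelet activating factor and oxidised phospholipids, fell by 0.94 (limma adjusted p = 0.0448). For these 5 genes siTAZ3 alone gave falls of 0.96 to 1.34, and the difference between the pairs did not pass (limma adjusted p from 0.0554 to 0.285). Their calls in the main difference were all lost without siTAZ3_siYAP2 replicate 2. Those of SH3BP4 and PAFAH2 were lost without any 1 of the 5 arrays. Those of DDIAS and WDCP were also lost without any 1 siYAP2 array. That of GSR was also lost without siYAP2 replicate 2 or 3 (limma adjusted p = 0.0525 and 0.0592) or siTAZ3_siYAP2 replicate 1.

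CHST9, SLC25A12 and DKK1 passed on top of siYAP2 and in neither of the other comparisons. CHST9, a sulfotransferase of N-acetylgalactosamine residues, read 7.5, 7.29 and 7.5 with siYAP2 and 6.21 and 6.14 with the pair and fell by 1.25 (SE 0.182, limma adjusted p = 0.00206). DKK1, a secreted antagonist of Wnt receptors, read 9.97, 10.01 and 9.92 and then 8.96 and 8.95 and fell by 1.01 (limma adjusted p = 0.0236). DKK1 had means between 9.60 and 10.03 in the other 6 groups, and the pair's arrays lay below them. SLC25A12, the mitochondrial aspartate and glutamate carrier, read 7.92, 7.95 and 7.76 and then 6.86 and 6.87 and fell by 1.02 (limma adjusted p = 0.0478). Its siYAP2 mean was the highest of the 7 groups and its siTAZ3 mean, 6.42, the lowest. None of the 3 differed past the threshold from siTAZ3 alone (limma adjusted p of 0.934, 0.978 and 1 for CHST9, DKK1 and SLC25A12) or from the other pair (0.0734, 0.265 and 0.177). The calls of DKK1 and SLC25A12 were lost without any 1 of the 5 arrays.

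**Figure D3:**
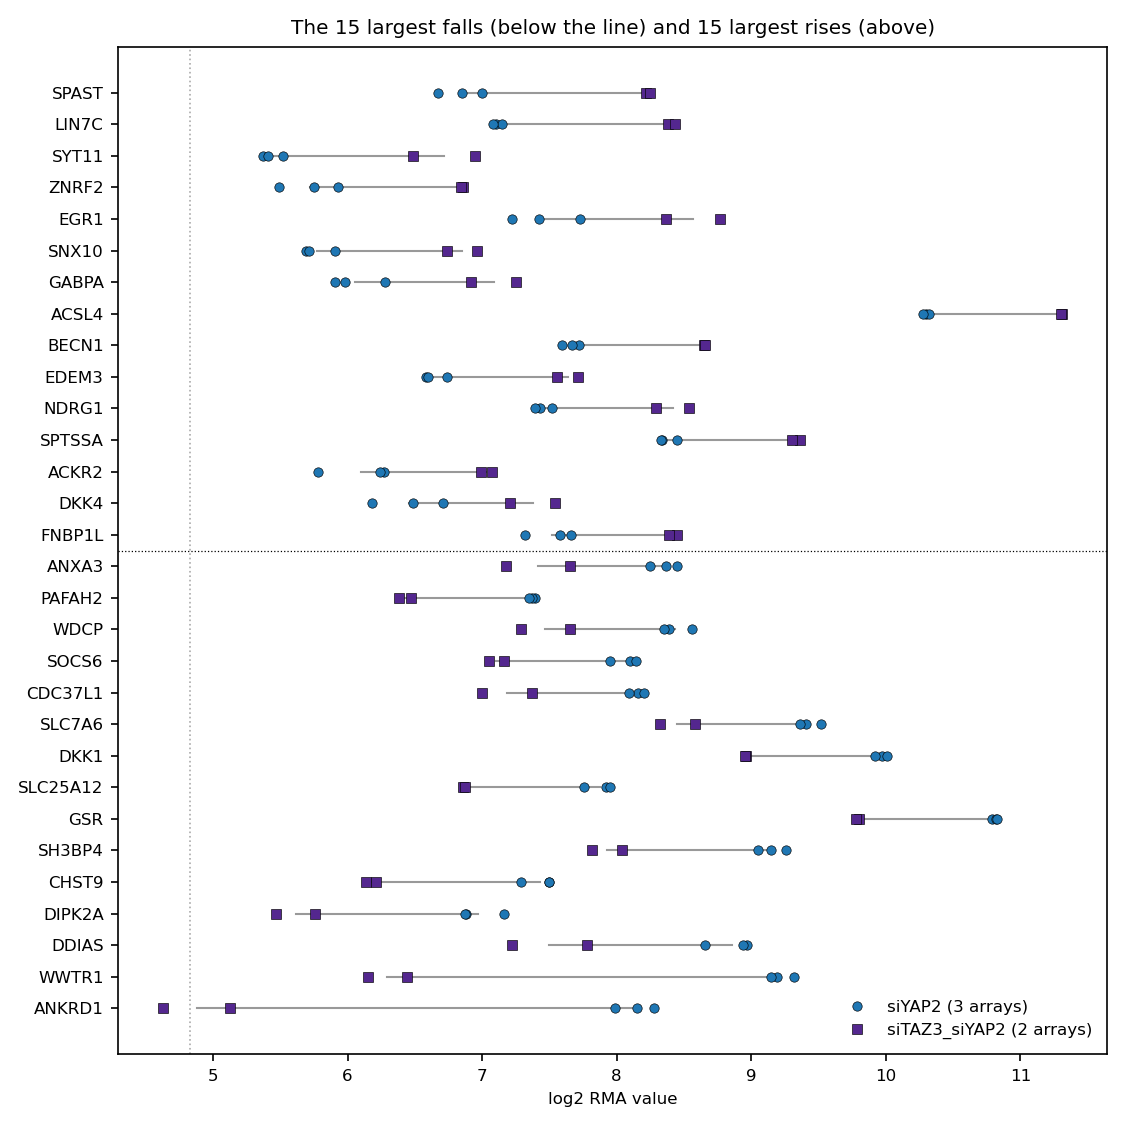
RMA values (log2, horizontal axis) of the 15 named genes with the largest falls and the 15 with the largest rises on the 3 siYAP2 arrays (circles) and the 2 siTAZ3_siYAP2 arrays (squares). Grey bars join the group means and the vertical dotted line is the array median of 4.83. No circle lies among the squares of its gene, as the rule for naming these genes required.

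The rises had another pattern. Of the 136, 18 also rose with siTAZ3 alone (13.2% of these, 13.7% of the 131) and 3 fell there. With siTAZ2 on siYAP1, 12 rose (8.8% of these, 4.2% of the 285) and 10 fell. Thus 113 of the 136 rose in neither comparison, or 83.1%. Their median was 0.54 here, 0.14 with siTAZ3 alone and -0.05 with siTAZ2 on siYAP1. For 9 of the 136, and for 36 of all probe sets, all 10 later arrays lay above all 9 earlier ones.

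For 11 of the 15 largest rises of named genes, siYAP2 had the lowest mean of the 7 groups, and for 9 of the 15 the pair had the second lowest. The siYAP2 arrays enter both a low siYAP2 mean and the rise in the pair, so neither is independent of the other. SPAST, the microtubule-severing protein spastin, read 6.85, 6.67 and 7.0 with siYAP2 and 8.22 and 8.25 with the pair, and it rose by 1.39 (SE 0.233, 2.63-fold, limma adjusted p = 0.00645). Its means were 9.09 in control, 9.27 with siYAP1, 9.02 with siTAZ2, 9.06 with siTAZ3 and 8.88 with siTAZ2_siYAP1. SPAST in the pair thus lay between siYAP2 and the other 5 groups.

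LIN7C, a PDZ scaffold of cell polarity and junctions, read 7.10, 7.15 and 7.08 with siYAP2 and 8.38 and 8.43 with the pair, and it rose by 1.29 (SE 0.0744, 2.45-fold, limma adjusted p = 1.99e-07). All 14 arrays of the other groups lay between 9.34 and 10.07. LIN7C also rose with siTAZ3 alone, by 0.55 (limma adjusted p = 0.00126). It stood at 20.3% of its control level with siYAP2, at 49.7% with the pair, at 144% with siYAP1 and at 127% with siTAZ2_siYAP1. Both of its differences from the other comparisons passed (0.74, limma adjusted p = 0.00943, from siTAZ3 alone, and 1.48, limma adjusted p = 2.88e-06, from the other pair).

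BECN1, the autophagy protein beclin 1, read 7.72, 7.59 and 7.67 with siYAP2 and 8.65 and 8.66 with the pair and rose by 0.99 (limma adjusted p = 0.000327), with means of 9.25 to 9.51 in the other groups. NDRG1, a hypoxia-inducible stress protein, read 7.52, 7.43 and 7.39 and then 8.54 and 8.29 and rose by 0.97 (limma adjusted p = 0.00119). NDRG1 fell by 0.60 with siTAZ2 on siYAP1 (limma adjusted p = 0.0116). SPTSSA, a small subunit of serine palmitoyltransferase in sphingolipid synthesis, read 8.45, 8.34 and 8.33 and then 9.36 and 9.30 and rose by 0.95 (limma adjusted p = 2.77e-06). In these 3 genes too, no array of the pair reached the control mean (9.25, 8.90 and 9.63).

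EDEM3, a mannosidase of the degradation of misfolded glycoproteins, rose by 0.99 from a siYAP2 mean of 6.64 to 7.63 in the pair, with 8.02 in control (limma adjusted p = 0.00118). SNX10, a sorting nexin of endosomes, rose by 1.08, from 5.77 to 6.85, with 7.14 in control (limma adjusted p = 0.000931). GABPA, an ETS transcription factor, rose by 1.03, from 6.06 to 7.08, with 7.51 in control (limma adjusted p = 0.027). The E3 ubiquitin ligase gene ZNRF2 rose by 1.13, from 5.72 to 6.85, with 7.46 in control (limma adjusted p = 0.00638). FNBP1L, an F-BAR protein that links membranes to actin, rose by 0.90, from 7.52 to 8.42, with 9.14 in control (limma adjusted p = 0.0186). All 5 of these had their lowest mean with siYAP2 and remained below control in the pair. ACSL4, which activates arachidonic acid for phospholipids, had its lowest mean with siYAP2 as well but reached the control level: it read 10.30, 10.32 and 10.28 and then 11.31 and 11.30, a rise of 1.00 (limma adjusted p = 0.00308), with 11.23 in control.

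The other 4 of the 15 were SYT11, DKK4 and ACKR2, with the highest mean of the 7 groups in the pair, and EGR1, with its lowest mean in siTAZ2. SYT11, a synaptotagmin of vesicle trafficking, read 5.37, 5.52 and 5.41 with siYAP2 and 6.95 and 6.49 with the pair and rose by 1.28 (SE 0.12, limma adjusted p = 5.59e-05). It also rose by 0.88 with siTAZ3 alone (limma adjusted p = 0.00126) and by 0.50 with siTAZ2 on siYAP1 (limma adjusted p = 0.0196), from 4.59 and 4.55, levels near the array median. DKK4, a secreted Wnt antagonist, read 6.71, 6.49 and 6.18 and then 7.54 and 7.21, a rise of 0.91 (limma adjusted p = 0.0186), and it rose by 1.19 with siTAZ3 alone (limma adjusted p = 0.00241). ACKR2, a scavenging receptor of chemokines, read 5.78, 6.27 and 6.24 and then 7.07 and 6.99, a rise of 0.93 (limma adjusted p = 0.0111). EGR1, an immediate early transcription factor, read 7.73, 7.42 and 7.22 and then 8.77 and 8.37, a rise of 1.11 (SE 0.251, limma adjusted p = 0.0448). EGR1 went the other way with siTAZ2 on siYAP1, where it fell by 1.04 (limma adjusted p = 0.0205).

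The calls of several of these rises were lost when 1 array was left out. Without siTAZ3_siYAP2 replicate 1 the limma adjusted p was 0.306 for EGR1, 0.231 for GABPA, 0.194 for DKK4, 0.136 for FNBP1L, 0.103 for ACKR2, 0.0662 for ZNRF2 and 0.0632 for SPAST. Without siTAZ3_siYAP2 replicate 2 it was 0.14 for FNBP1L, 0.124 for EGR1, 0.0853 for GABPA, 0.0847 for ACKR2, 0.0785 for SPAST, 0.0704 for ZNRF2 and 0.0507 for DKK4. EGR1, GABPA, DKK4 and FNBP1L also lost theirs without 1 or more siYAP2 arrays. LIN7C, SYT11, SNX10, ACSL4, BECN1, EDEM3, NDRG1 and SPTSSA passed without each of the 5 arrays.

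**Figure D4:**
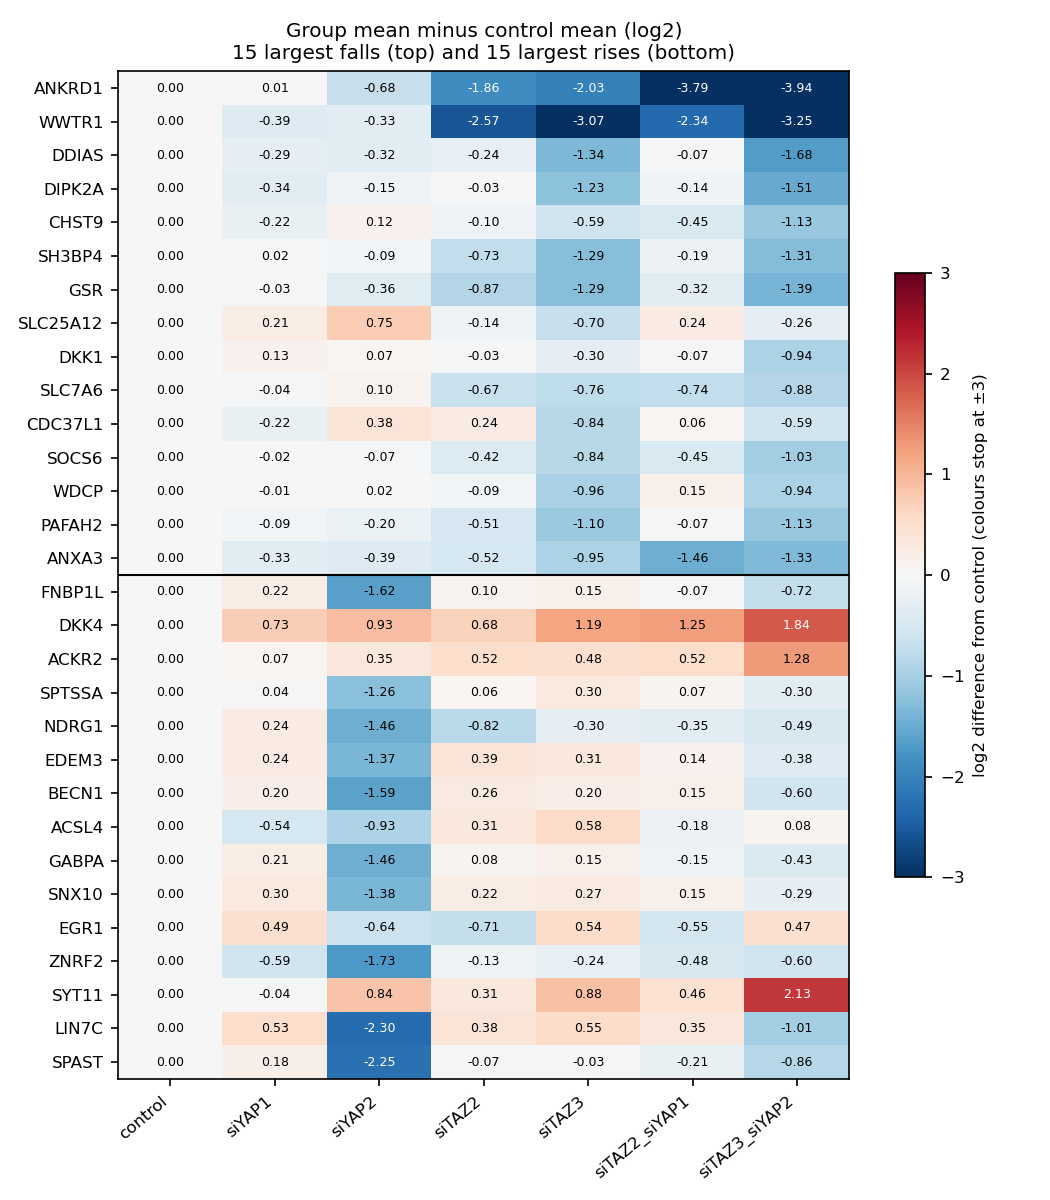
Group mean minus control mean (log2, printed and coloured, colours stop at 3 in either direction) of the 15 largest falls (top) and 15 largest rises (bottom) in the 7 groups. Among the falls 11 of 15 genes are lowest in siTAZ3_siYAP2, and among the rises 11 of 15 are lowest in siYAP2. The genes were picked by the difference between these groups, so neither count is independent of the choice.

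The siTAZ3 effect on top of siYAP2 was then set against the effect of siTAZ3 on its own. In this difference of differences an equal shift between deposits cancels. Total siRNA dose does not cancel. It was 40 nM in the pair and 20 nM with siYAP2, but 20 nM with siTAZ3 alone against an unclear control dose. An effect of total dose cannot be told apart from a change in the siTAZ3 effect. The 5 arrays of the main difference enter this difference of differences too, so calls shared by both are not independent. The difference of differences called 21 probe sets (0.0821%), 13 higher and 8 lower, against 1192 with an unadjusted p under 0.05. Of the 21, 14 had also passed in the main difference. Of the 136 rises 13 passed it, and of the 151 falls 1, EIF2AK4, which encodes the amino acid sensing kinase GCN2. EIF2AK4 read 10.03, 10.05 and 10.05 with siYAP2 and 9.71 and 9.64 with the pair and fell by 0.37 (limma adjusted p = 0.012), while it was 0.27 higher with siTAZ3 alone than in control (limma adjusted p = 0.0849). The EIF2AK4 fall was not called without siTAZ3_siYAP2 replicate 1 or 2 (limma adjusted p = 0.0571 and 0.167) or with only the 5 arrays in the fit (0.0837). Without siTAZ3 replicate 1 or 2 the count of 21 became 9 or 10, whereas leaving out the array labelled siTAZ2 replicate 3 raised it to 99.

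On the higher side stood NDRG1 (1.26, limma adjusted p = 0.011), YAP1 (1.02, limma adjusted p = 0.00526), BTG3, OSBPL8, WSB2 and TMED5. BTG3, an antiproliferative protein of the BTG family, read 5.77, 5.87 and 5.60 with siYAP2 and 6.28 and 6.30 with the pair, and it rose by 0.54 where siTAZ3 alone gave a fall of 0.45 (limma adjusted p = 0.0486). The BTG3 rise was not called without siYAP2 replicate 3 (limma adjusted p = 0.0823), without siTAZ3_siYAP2 replicate 1 or 2 (0.108 and 0.161) or with only the 5 arrays in the fit (0.092). OSBPL8, a lipid transfer protein of the endoplasmic reticulum, read 8.37, 8.46 and 8.52 and then 9.04 and 9.07, and it rose by 0.61 where siTAZ3 alone gave a fall of 0.37 (limma adjusted p = 0.0402). WSB2, a SOCS box protein, rose by 0.71 from 8.60, 8.59 and 8.70 to 9.37 and 9.32. TMED5, a cargo receptor between endoplasmic reticulum and Golgi, rose by 0.77 from 9.64, 9.64 and 9.76 to 10.39 and 10.50. WSB2 and TMED5 differed by -0.05 and 0.02 between siTAZ3 alone and control, and neither passed there. In NDRG1, BTG3, OSBPL8, WSB2 and TMED5 siYAP2 had the lowest mean of the 7 groups. Their means in the pair remained below control means of 8.90, 7.59, 9.98, 9.92 and 10.52. The siYAP2 arrays enter this difference of differences, so a low siYAP2 mean is not independent of a place on the higher side.

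On the lower side stood DSC2, DRAM1, SMIM15, SGCB, RHOBTB1 and EIF2AK4, and in all 6 the control group had the lowest mean of the 7. The control arrays enter this difference of differences, so a low control mean is not independent of a place on the lower side. DSC2, a desmosomal cadherin, read 10.25, 10.21 and 10.36 with siYAP2 and 10.24 and 10.10 with the pair, and its difference of -0.11 did not pass. DSC2 rose by 0.91 from 9.36 with siTAZ3 alone (limma adjusted p = 8.48e-05). SMIM15, a small membrane protein, likewise differed by -0.03 on top of siYAP2 and rose by 0.82 with siTAZ3 alone, and SGCB, a sarcoglycan, differed by 0.15 and rose by 0.83. DRAM1, a lysosomal protein induced by p53, differed by -0.31 and rose by 0.61, and RHOBTB1 differed by -0.11 and rose by 0.56. The siYAP2 means of these genes were already above control.

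**Figure D5:**
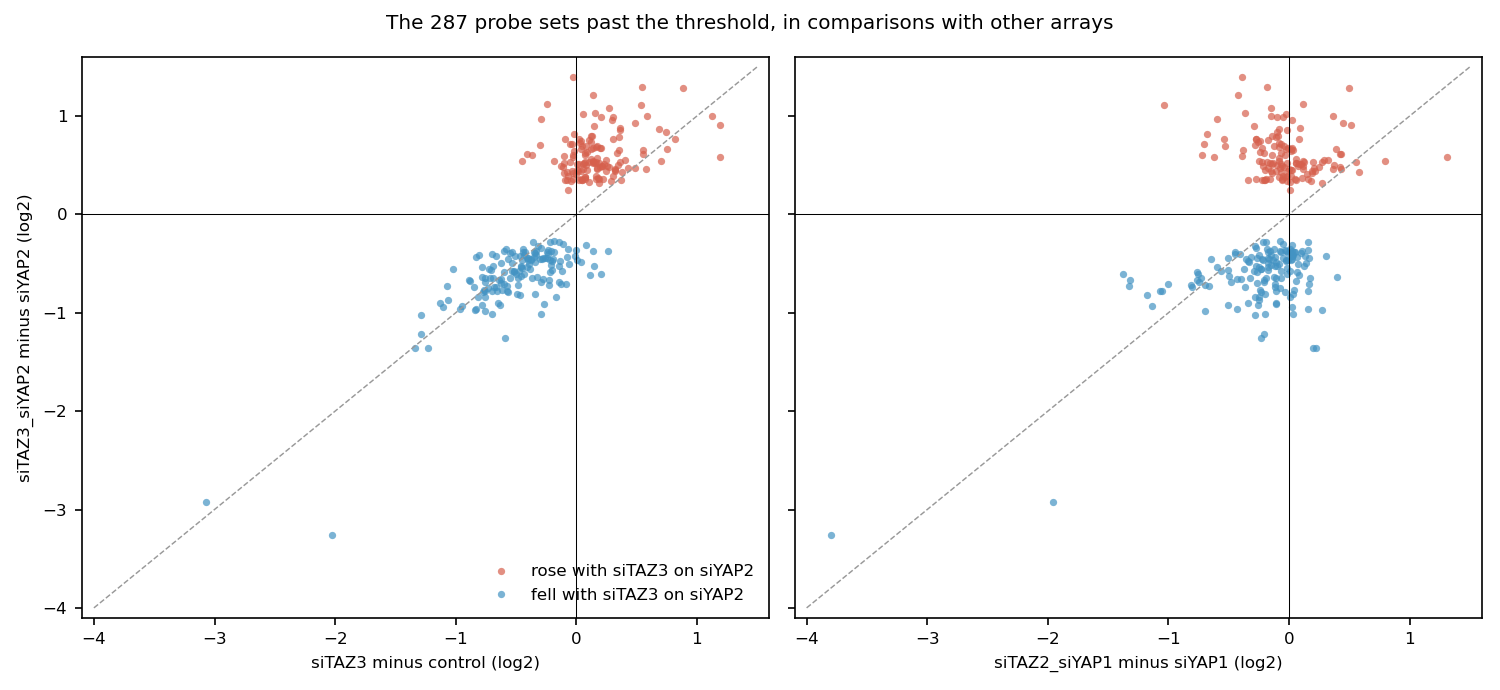
The 287 probe sets that passed, with their difference on adding siTAZ3 to siYAP2 (log2, vertical axes) against that of siTAZ3 alone (log2, left) and of siTAZ2 on siYAP1 (log2, right). The dashed line marks equal differences; of the falls (blue) 77 also fell at left and 42 at right, and of the rises (red) 18 rose at left and 12 at right.

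Set against siTAZ2 on top of siYAP1, where the deposits stand on the same sides but both siRNAs differ, 202 probe sets passed (0.79%), 136 with the larger value for siTAZ3 on siYAP2 and 66 with the smaller. Of the 136 rises 74 passed this difference (54.4%), and of the 151 falls 19 (12.6%). The 5 arrays that picked these rises and falls enter this difference too, so these shares are not independent of the main difference. Besides LIN7C, the largest differences of the first kind among named genes were in EGR1 (2.15), SPAST (1.79), NDRG1 (1.56) and WSB2 (1.42). IER3, a stress-induced regulator of survival, rose by 0.61 here (10.17, 10.12 and 10.15 to 10.89 and 10.62) and fell by 0.72 with siTAZ2 on siYAP1, a difference of 1.33 (limma adjusted p = 0.000105). Without siYAP2 replicate 2 or 3 the count of 202 became 129 or 122, without siTAZ3_siYAP2 replicate 1 it became 88, and without the array labelled siTAZ2 replicate 3 it became 1083.

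In the remaining gene lists few members passed, and the counts are read against the 1.12% of all probe sets and their median of 0.002. Among 27 measured genes of the actin cytoskeleton and adhesion, ANXA3 and CALD1 fell, the latter, caldesmon, by 0.41 (limma adjusted p = 0.029), and ACTG1, gamma actin, rose by 0.25 (limma adjusted p = 0.0228). Their median was -0.01. Among 22 matrix genes PLOD2, a collagen lysyl hydroxylase, rose by 0.51 from 9.36, 9.57 and 9.62 to 9.92 and 10.14 (limma adjusted p = 0.0111), and SPARC, a collagen-binding matricellular protein, rose by 0.56 (limma adjusted p = 0.0182). PLOD2 stayed below its control mean of 10.73, whereas SPARC at 8.06 was above its control mean of 7.70. The PLOD2 call was lost without siTAZ3_siYAP2 replicate 2. Those of ACTG1 and CALD1 were lost without siYAP2 replicate 2 or 3 or either array of the pair. That of SPARC was lost without any 1 of the 5 arrays.

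Among 29 genes of DNA replication and entry into S phase, GINS1, a subunit of the replicative helicase, read 10.52, 10.43 and 10.38 with siYAP2 and 9.81 and 9.69 with the pair and fell by 0.69 (limma adjusted p = 0.00189). GINS1 fell with siTAZ3 alone and with siTAZ2 on siYAP1 too, by 0.75 and 0.48. CDC45, another component of that helicase, rose by 0.53 from a siYAP2 mean of 7.44 to 7.96 (limma adjusted p = 0.00246), and SLBP, which binds histone mRNA, by 0.43 from 8.82 to 9.25 (limma adjusted p = 0.0487), both below their control means of 8.25 and 9.84. The list's median was 0.11. Of 26 mitosis genes CCNA2, cyclin A2, fell by 0.45 (limma adjusted p = 0.0146) and the others did not pass. Of 18 p53 targets and 14 core histones none passed, the largest differences being in ZMAT3, an RNA-binding protein (-0.74, limma adjusted p = 0.0688), TIGAR, a fructose bisphosphatase (-0.41, limma adjusted p = 0.237), H3C2 (0.40, limma adjusted p = 0.228) and H1-2 (0.25, limma adjusted p = 0.601). ZMAT3 passed without the array labelled siTAZ2 replicate 3 (limma adjusted p = 0.000436). The CDC45 call was lost without siTAZ3_siYAP2 replicate 2. That of CCNA2 was lost without siYAP2 replicate 1 or either array of the pair, and that of SLBP without any 1 of the 5 arrays.

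Liver functions showed few differences past the threshold. Of 28 plasma protein genes none passed, with HP, haptoglobin, at 0.47 and PLG, plasminogen, at 0.26 (limma adjusted p = 0.842 and 0.843), and the median was 0.07. Of 22 genes of bile acid and drug metabolism none passed either, with CYP3A5, a drug-oxidising enzyme, at 0.54 and ABCB4, the phospholipid exporter of the bile canaliculus, at 0.48 (limma adjusted p = 0.472 and 0.138). ABCB4 passed without the array labelled siTAZ2 replicate 3 (limma adjusted p = 0.0158) but not with only the 5 arrays in the fit (0.219). Of 15 hepatocyte transcription factors ONECUT1 fell by 0.60, from 5.70, 5.78 and 5.70 to 5.25 and 5.0 (limma adjusted p = 0.0365), a call lost without any 1 of the 5 arrays. The pair's values of ONECUT1 lie near the array median of 4.83. BHMT, a liver enzyme that remethylates homocysteine, read 8.56, 8.38 and 8.26 with siYAP2 and 9.0 and 8.96 with the pair and rose by 0.58 (limma adjusted p = 0.027), alone among 17 genes of methionine metabolism. It rose by 1.19 with siTAZ3 alone and by 1.31 with siTAZ2 on siYAP1. The BHMT call was lost without siYAP2 replicate 2 or 3 (limma adjusted p = 0.0961 and 0.13) or either array of the pair.

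Of 22 genes of fatty acid synthesis and triglyceride assembly, GPAT3, a glycerol phosphate acyltransferase, read 7.22, 7.21 and 7.12 with siYAP2 and 6.53 and 6.38 with the pair and fell by 0.73 (limma adjusted p = 0.00118). It fell by 1.07 with siTAZ3 alone and by 0.67 with siTAZ2 on siYAP1. PLIN2, the lipid droplet coat protein, rose by 0.43 from 10.51, 10.63 and 10.60 to 10.96 and 11.05 (limma adjusted p = 0.0186). PLIN2 had its lowest mean of the 7 groups with siYAP2 (10.58) and stood at 11.01 in the pair, with 10.95 in control. None of 15 cholesterol synthesis genes passed (median 0.14), with SREBF2, their transcription factor, at 0.31 and IDI1, isopentenyl diphosphate isomerase, at 0.29 (limma adjusted p = 0.259 and 0.656). None of 19 genes of fatty acid oxidation passed, with CROT, a peroxisomal acyltransferase, at -0.35 and ACADM, the medium-chain acyl-CoA dehydrogenase, at 0.29 (limma adjusted p = 0.135 and 0.559). ACADM passed without the array labelled siTAZ2 replicate 3 (limma adjusted p = 0.0131) but not with only the 5 arrays in the fit (0.182). The PLIN2 call was lost without siYAP2 replicate 1 or 3 (limma adjusted p = 0.0847 and 0.0601) or either array of the pair.

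Among 21 genes of glutathione metabolism and NRF2 targets, members moved in both directions. GSR fell, as given above. SLC7A11, the cystine importer, read 9.48, 9.39 and 9.33 with siYAP2 and 8.54 and 8.42 with the pair and fell by 0.92 (limma adjusted p = 0.0154). The SLC7A11 call was lost without siYAP2 replicate 1 or 2 (limma adjusted p = 0.0652 and 0.0525) or either array of the pair. GCLM, the modifier subunit of the first enzyme of glutathione synthesis, read 7.81, 7.86 and 7.97 and then 8.75 and 8.61 and rose by 0.80 (limma adjusted p = 4.21e-05). GCLM with the pair remained below its control mean of 9.28. Of 24 autophagy and lysosome genes, BECN1 rose and LAMP2, a lysosomal membrane protein, rose by 0.54 (limma adjusted p = 0.00411), while ATG16L1, which carries the LC3 lipidation complex, fell by 0.44 (limma adjusted p = 0.0265). LAMP2 had its lowest mean of the 7 groups with siYAP2 (8.94) and stood at 9.48 in the pair, below 9.70 in control. ATG16L1 fell by 0.84 with siTAZ3 alone. The LAMP2 call was lost without siTAZ3_siYAP2 replicate 2 (limma adjusted p = 0.106) and that of ATG16L1 without any 1 of the 5 arrays (limma adjusted p up to 0.182).

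Of 21 immediate early genes EGR1 and IER3 rose and FOSL2, an AP-1 subunit, fell by 0.49 from 6.80, 7.01 and 7.15 to 6.47 and 6.53 (limma adjusted p = 0.0155). Of 16 Wnt targets DKK4 and LGR5 rose and DKK1 fell, LGR5, an R-spondin receptor, by 0.36 (limma adjusted p = 0.0207). LGR5 had its lowest mean of the 7 groups with siYAP2 (10.10) and stood at 10.46 in the pair, with 10.47 in control. Of 23 genes of hypoxia and glycolysis NDRG1 rose and no other passed. Of 21 genes of the ATF4 and unfolded protein responses ASNS, asparagine synthetase, fell by 0.39 (limma adjusted p = 0.0174). ASNS fell by 0.55 with siTAZ3 alone (limma adjusted p = 0.00126). Its siYAP2 mean of 8.0 was the highest of the 7 groups, with 7.80 in control. The calls of FOSL2, LGR5, ASNS and IER3 were lost without siTAZ3_siYAP2 replicate 1. That of FOSL2 was also lost without siTAZ3_siYAP2 replicate 2 or siYAP2 replicate 2 or 3. Those of LGR5 and ASNS were also lost without siYAP2 replicate 1 or 3. In the lists of 20 interferon response genes, 17 NF-kB and chemokine genes, 16 small RNA machinery genes and 11 metallothioneins none passed. Their largest differences were in IFIH1, a sensor of double-stranded RNA (-0.26), IRF9, an interferon-response factor (0.26), NFKB1 (-0.36) and NFKB2 (-0.29), both NF-kB subunits, the Argonautes AGO4 (0.29) and AGO3 (-0.24), and the metal-binding proteins MT1F (0.35) and MT2A (0.31), with limma adjusted p from 0.0912 to 0.923.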

How the data were processed

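RNA of HepG2 cells was measured on Affymetrix arrays as biotin-labelled cRNA, per the labels' protocols. The deposited values are log2 values that the authors made with RMA, per the submitters' processing notes. The RMA version is not given in the sources used here. When sorted, the values of the 19 arrays are identical, from 3.17 to 13.78 with a median of 4.83, so a shift shared by all genes of a group is not visible in them. Arrays have no read depth, and their number limits the precision.

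Of 25582 probe sets, 24244 carry 1 gene symbol in the platform annotation and 1338 none. Symbols were updated through RefSeq (GRCh38.p14) for 24195. Groups were taken from the titles. All 19 arrays entered 1 fit with a mean for each group (limma 3.58.1, R 4.3.3, lmFit with eBayes, 12 residual degrees of freedom), with no filter on dim probe sets. P-values were adjusted by Benjamini-Hochberg over all probe sets, with a threshold of 0.05. SE is limma's moderated standard error, and fits were tested on simulated data. The main difference was also set against siTAZ3 minus control and against siTAZ2_siYAP1 minus siYAP1. A group left with 1 array when another is left out was assumed to vary like the rest.

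The comparisons, the 27 gene lists and the rule for naming genes were chosen with earlier results of these data known. Both siRNA targets and CCN1, CCN2, ANKRD1 and AMOTL2 are always named, then the 15 largest rises and 15 largest falls among genes that passed, whose arrays did not overlap and whose mean was at least 6 in the higher group. Non-coding, provisional and immune receptor symbols were left out. The 6 largest differences in each direction between the siTAZ3 effects with and without siYAP2 are named as well. Of each list up to 4 members that passed are named, or the 2 largest differences where none passed, and 546 of 584 list places were analysed. Promoter windows come from RefSeq and were searched for 1 motif on both strands. The siRNA sequences were not used here.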

Additional observations from a re-analysis of the deposited data

Results flagged for a closer look

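Named genes are given here because their difference from another contrast passed its own limma test. For the siTAZ3 effect with minus without siYAP2, a positive value means that the gene stood further up, or less far down, with siTAZ3 in cells that also received siYAP2. These were NDRG1 (1.265, adjusted p = 0.011), YAP1 (1.021, 0.00526), BTG3 (0.991, 0.011), OSBPL8 (0.972, 0.00358), WSB2 (0.767, 0.00526), TMED5 (0.744, 0.00526), LIN7C (0.744, 0.00943), GCLM (0.683, 0.0112) and SPTSSA (0.656, 0.011). Negative values were found for DSC2 (-1.023, 0.00358), DRAM1 (-0.919, 0.01), SMIM15 (-0.848, 0.00358), SGCB (-0.681, 0.0322), RHOBTB1 (-0.677, 0.0126) and EIF2AK4 (-0.641, 0.0112).

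For siTAZ3 on siYAP2 minus siTAZ2 on siYAP1, in which the siRNAs to both genes differ, the positive values were largest in EGR1 (2.149, adjusted p = 0.00579), SPAST (1.785, 0.0112) and NDRG1 (1.564, 0.000469). Between 1 and 1.5 lay LIN7C (1.476, 2.88e-06), WSB2 (1.418, 2.88e-06), GABPA (1.39, 0.0335), IER3 (1.329, 0.000105), SNX10 (1.231, 0.0046), FNBP1L (1.191, 0.026), EDEM3 (1.092, 0.00762) and BECN1 (1.043, 0.00402). Smaller ones were found in GCLM (0.942, 0.000238), SPTSSA (0.926, 0.000157), MT2A (0.822, 0.0385), BTG3 (0.786, 0.0116), SYT11 (0.784, 0.0336), OSBPL8 (0.744, 0.00355), TMED5 (0.684, 0.00208), PLOD2 (0.654, 0.0196), PLIN2 (0.563, 0.0253) and CDC45 (0.543, 0.0227). Negative values were found for DIPK2A (-1.551, 0.00447), CDC37L1 (-1.243, 0.00355), WWTR1 (-0.971, 0.0075), RHOBTB1 (-0.572, 0.00992) and ASNS (-0.491, 0.0341). The test for an outlying array within a group was not run, since no group holds more than 3 arrays.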

How the results depend on the processing

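The 287 probe sets called for siTAZ3 on top of siYAP2 became 141 (55 higher, 86 lower) with only the 5 arrays compared in the fit and 458 (209 higher, 249 lower) with array weights. The 21 called for the siTAZ3 effect with minus without siYAP2 became 36 and 72 under these settings, and the 202 called for the difference between the pairs became 684 and 711. Leaving out 1 array gave 114 to 719 calls in the main difference (64 to 348 higher, 47 to 371 lower), 9 to 99 in the second and 88 to 1083 in the third. Each of these highest counts came without the array labelled siTAZ2 replicate 3, which had the highest SD of deviations from its group mean (0.251, against 0.0918 to 0.166 elsewhere). Other settings stayed within 1.5 times: an intensity trend (230), no dimmest 30% of probe sets (281) and a random replicate block within deposit (288). Centring on the median gave 287, but it could not change a call, since the sorted values of the arrays are identical. Keeping 1 probe set per symbol left the counts at 287, 21 and 202.

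With the replicate number as a block the main difference gave 271 calls, the second 23 and the third 195. Same-numbered siYAP2 and siTAZ3_siYAP2 arrays deviated together (correlations of 0.272 and 0.222), which does not show that the numbers pair the arrays. The 2 siTAZ3_siYAP2 arrays deviate from their mean by equal and opposite amounts, so these correlations are not 2 separate observations. Same-numbered siTAZ3 and siTAZ3_siYAP2 arrays correlated at -0.281, and crossing those numbers, an alternative chosen after seeing the data, gave 23 calls in the second.

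Of the 60 named genes that passed, 21 did so under all 14 alternatives and 39 lost the call under at least 1. Among the 14, centring could not change a call, and 1 probe set per symbol and the random block changed none. Of the 30 that did not pass, CCN2, ZMAT3, NFKB1, ACADM and ABCB4 passed under at least 1. No called difference of a named gene turned its direction under these alternatives. Most of them could not have shown this, since the arrays of the 2 groups did not overlap for any called probe set. The cause of these shifts was not tested.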
